A study of Bos taurus with 13 samples.

Results

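The 4 haemoglobin genes that the count tables of this series name are *HBB*, *HBG*, *HBM* and *HBQ1*, and they were taken by name from 16095 named genes. Blood was drawn from the tail vein of lactating Italian Red Pied dairy cows into PAXgene tubes, which preserve RNA at sampling, and total RNA was sequenced without removal of globin transcripts. The 13 cows analysed here came from the tails of a ranking of 1 herd by cortisol in milk, a hormone marker of stress, with 7 cows in the high group (replicates 1 to 7) and 6 in the low group (replicates 8 to 13). The labels name no treatment, age or allele, and cortisol values of single cows were not used here, so the groups stand for a ranking and not for an experimental exposure. Each library is 1 cow, and p-values measure the spread between these cows. Between 11045599 and 28124575 reads per cow were counted on named genes.

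Haemoglobin is the oxygen carrier of red blood cells and is built from alpha-type and beta-type chains, each with a haem group. Mature red cells of mammals carry no nucleus and little RNA, and it is mainly their youngest circulating form, the reticulocyte, that still holds haemoglobin transcripts. Healthy adult cattle release few reticulocytes into the blood, so haemoglobin transcripts take up much less of bovine than of human blood RNA.

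*HBB* encodes the adult beta chain and *HBG* the fetal beta-type chain of cattle. On the UMD3.1 build that the count tables use, *HBB* lies on chromosome 15 from 49022978 to 49024619, with *HBG* downstream on the same strand from 49073060 to 49074738. *HBM* (the mu chain) and *HBQ1* (the theta chain) belong to the alpha-type cluster, on chromosome 25 from 208739 to 209518 and from 216922 to 217650. All 4 genes are on the plus strand with 3 exons each, and the middle exon is 223 bases long in *HBB* and *HBG* and 205 bases in *HBM* and *HBQ1*. Their counted lengths were 614, 679, 513 and 495 bases, and no exon of another entry of the tables overlapped them.

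The alpha chain itself is not counted by name. Between *HBM* and *HBQ1* the tables hold 6 exons without a gene name, of which 2 have the 205-base length of the middle exon, and RefSeq names *HBA* and *HBA1* in the same interval of its own assembly (ARS-UCD2.0, used here for names and order only). Reads on such exons are pooled with those of all other unnamed genes in 1 entry, which held between 13.9% and 16.7% of all counts of a cow, and alpha chain transcripts could not be separated from it. Between *HBB* and *HBG* the tables hold 8 exons without a gene name, 1 of them with the 223-base length of the middle exon. RefSeq places 4 genes there, *HBE2* among them, and none is counted by name. Haemoglobin levels below therefore stand for the beta-type chains of *HBB* and *HBG* alone and for 2 minor alpha-type chains. *HBB* and *HBG* are similar in sequence, and whether reads of *HBB* were counted on *HBG* was not tested.

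*HBB* supplied nearly all of the haemoglobin counts, between 96.4% and 98.3% of the sum over the 4 genes in the 13 cows. Its level in the high group ran from 271 CPM (read counts relative to the TMM-scaled library size) through a median of 1101 to 7511 CPM, and in the low group from 115 through 292 to 526 CPM. Replicates 3, 4, 5, 6 and 7 of the high group lay above every low cow, while replicates 1 and 2 lay within the low range, so the groups overlapped.

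*HBG* ran from 4.83 through a median of 17.9 to 162 CPM in the high group and from 2.53 through 5.44 to 7.99 CPM in the low group. The same 5 high cows lay above every low cow. *HBM* ran from 0.188 through 1.92 to 21.2 CPM in the high group and from 0.451 through 0.558 to 1.32 CPM in the low group, and replicate 1 of the high group was the lowest of all 13 cows with 4 counts. *HBQ1* stayed within a narrow band, from 0.758 through 1.198 to 1.97 CPM in the high group and from 0.601 through 1.00 to 1.14 CPM in the low group, on 10 to 34 counts per cow. Its groups overlapped, with 4 high cows above every low cow.

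**Figure D1:**
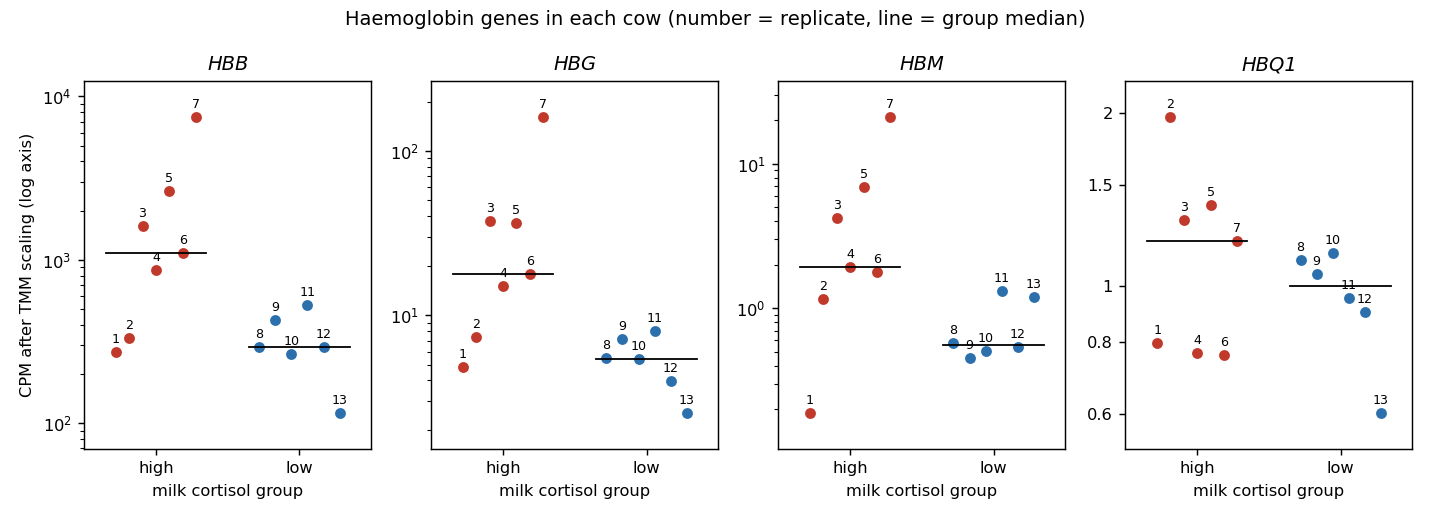
Level of each haemoglobin gene in every cow, in CPM after TMM scaling on a log axis, with the high group in red, the low group in blue, replicate numbers above the points and group medians as lines. Replicates 3 to 7 of the high group sit above all low cows for *HBB*, *HBG* and *HBM*, with replicate 7 at 7511 CPM of *HBB*, and for *HBQ1* all cows lie between 0.601 and 1.97 CPM.

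The genes can be ordered only per length of counted exon. The median over the 13 cows was 699 CPM per kb for *HBB*, 10.8 CPM per kb for *HBG*, 2.34 CPM per kb for *HBM* and 2.12 CPM per kb for *HBQ1*. *HBB* exceeded *HBG* in all 13 cows, by 47.2-fold to 81.7-fold, and *HBG* exceeded *HBM* and *HBQ1* in all 13. *HBM* and *HBQ1* had no fixed order, with *HBM* the higher per kb in 5 of 7 high cows and 2 of 6 low cows. Among all named genes, *HBB* per kb ranked 1st in replicate 7 and 13th in replicate 5 of the high group, and 561st in replicate 13 of the low group.

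The 4 genes together took 0.815% of the named-gene counts in replicate 7 (95% exact binomial interval 0.811% to 0.819%, counting error only) and 0.0282% to 0.262% in the other high cows, against 0.0114% to 0.0552% in the low cows. The mean of the log2 percent was -3.06 ± 1.70 (SD, n = 7) in the high group and -5.11 ± 0.784 (SD, n = 6) in the low group. The difference of 2.05 gave p = 0.0175 in a two-sided exact permutation test that used each of the 1716 ways to split the cows, with 5.83e-04 as its smallest possible p. In whole blood, a smaller number of haemoglobin-bearing cells and less haemoglobin RNA per cell cannot be told apart. The share is relative to all named-gene counts, so a different amount of RNA from other blood cells cannot be told apart from these either. With 1 cow left out in turn, p of this test lay between 0.00649 and 0.0429.

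Between the groups, the fold changes of *HBB*, *HBG* and *HBM* were close in value and that of *HBQ1* was smaller, though none passed the adjusted test and neither did the ratios of *HBQ1* to the other genes given below. The log2 fold change of the high over the low group was 2.68 (standard error 0.69) for *HBB*, 2.88 (0.72) for *HBG*, 2.76 (0.78) for *HBM* and 0.28 (0.29) for *HBQ1* in edgeR's quasi-likelihood test. The adjusted p of each was 0.998 over the 11033 genes that passed the filter on low counts, which all 4 haemoglobin genes did, and 0 of all these genes (0%) passed an adjusted p of 0.05, with 231 (2.09%) at an unadjusted p below 0.05. At an adjusted p of 0.05, DESeq2 passed 1 of its 14346 genes, which was none of the 4, with 348 at an unadjusted p below 0.05. The same numbers were 0 and 218 for limma-voom.

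Before adjustment, *HBB*, *HBG* and *HBM* had p of 0.00156, 0.00117 and 0.00271 (edgeR's quasi-likelihood test, n = 7 and 6), and *HBQ1* had 0.355. These 3 of 4 genes were higher in the high group at an unadjusted p below 0.05, which 103 of the 11033 genes tested (0.934%) were. The 3 genes rose and fell together across the same cows, so they are not 3 independent results. *HBB* also makes up nearly all of the haemoglobin share, so its test largely repeats that of the share. The exact two-sided permutation test of log2 CPM gave p = 0.0175 for *HBB*, 0.0128 for *HBG*, 0.0641 for *HBM* and 0.380 for *HBQ1*. *HBM* was also not below 0.05 before adjustment in limma-voom (unadjusted p 0.0903). In DESeq2 the unadjusted p were smaller, at 1.01e-04 for *HBB*, 4.04e-05 for *HBG* and 5.20e-04 for *HBM*. Their adjusted p in DESeq2 were 0.367, 0.290 and 0.571, and *HBQ1* had an unadjusted p of 0.403.

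By size, 3 of the 4 genes had a log2 fold change over 1, as had 55 genes tested (0.499%) in either direction. In the edgeR fit, *HBB*, *HBG* and *HBM* were the only genes tested with a log2 fold change above 2 toward the high group, 3 of 11033 (0.0272%). In limma-voom their log2 fold changes were 1.99, 2.06 and 1.73. None of the 4 haemoglobin genes had groups that did not overlap in log2 CPM, a state found in 3 of the 11033 genes (0.0272%). Replicate 7 carried a large part of these sizes. Without it, the log2 fold changes fell to 1.83 for *HBB*, 1.86 for *HBG* and 1.77 for *HBM*, while *HBQ1* stayed at 0.27, and the unadjusted p of the first 3 genes were 0.00262, 9.04e-04 and 0.0104 (edgeR). Leaving out any other single cow kept the log2 fold change of *HBB* between 2.50 and 2.88.

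**Figure D2:**
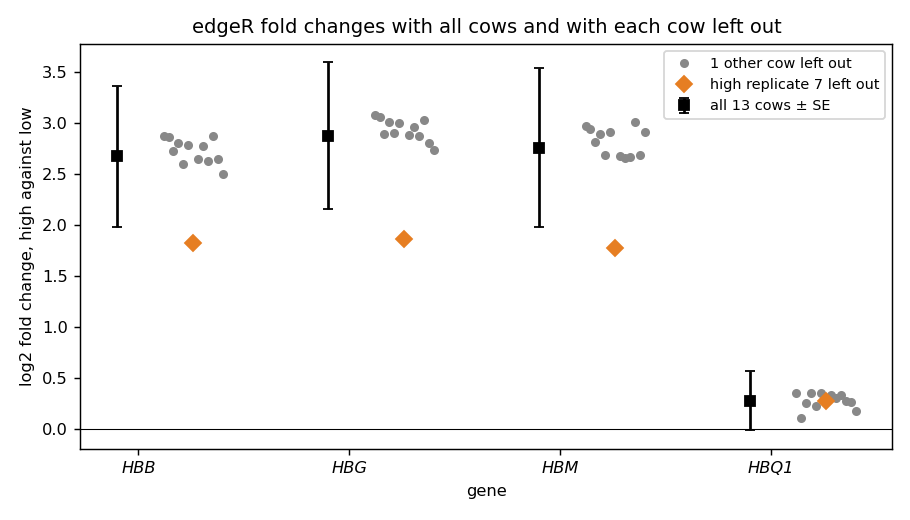
Log2 fold change of the high over the low group for each gene, with all 13 cows as squares with standard errors, with replicate 7 of the high group left out as diamonds, and with each other cow left out as grey points. *HBB*, *HBG* and *HBM* sit between 2.68 and 2.88 and drop to 1.77 to 1.86 without replicate 7, and *HBQ1* stays between 0.11 and 0.36.

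The spread between cows was itself unusual for *HBB*, *HBG* and *HBM*. The SD of log2 CPM over the 13 cows was 1.64 for *HBB*, 1.64 for *HBG* and 1.69 for *HBM*, beside a median of 0.305 over all genes tested, and at most 19 of the 11033 genes (0.172%) varied more than any of the 3. For *HBQ1* the SD was 0.406, and 32.7% of genes varied more. Within the high group the SD of log2 CPM was 1.67 for *HBB*, against 0.755 within the low group, so the high group held most of the variation.

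The ratio of *HBG* to *HBB* was nearly fixed while both genes ranged widely. *HBB* differed 65.3-fold and *HBG* 64.1-fold between the highest and the lowest cow in CPM, but counts of *HBG* stayed between 1.35% and 2.35% of those of *HBB*, a range of 1.73-fold. The mean was 1.89% ± 0.356 (SD, n = 7) in the high group and 1.77% ± 0.320 (SD, n = 6) in the low group. On the log2 scale, the ratio differed by 0.08 between the groups (exact two-sided permutation test, p = 0.593, adjusted over 6 ratios 0.675). A difference in the balance of fetal and adult beta-type counts was thus not detected. Whether a constant part of the *HBB* reads was counted on *HBG*, which would also give a nearly fixed ratio, was not tested.

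The small differences that remained between cows were in part larger than counting error. As a share of the sum of both genes, *HBG* took 2.29% in replicate 3 of the high group (95% exact binomial interval 2.09% to 2.51%) and 1.35% in replicate 5 (1.26% to 1.45%), and these intervals do not overlap. Replicate 7, with by far the most haemoglobin, had 2.11% (2.04% to 2.18%). Replicate 13 of the low group, with the least *HBB*, had 2.15% (1.55% to 2.89%). The cows with the most and the least *HBB* thus had overlapping intervals.

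*HBM* counts were 0.0691% to 0.349% of those of *HBB* in 12 of the cows, with a median of 0.209%. Replicate 13 of the low group stood apart at 1.05%. This cow had 20 counts of *HBM* beside 1913 of *HBB*, and *HBM* took 1.03% of the sum of the pair (95% exact binomial interval 0.633% to 1.59%), above the upper bound of every other cow. The log2 ratio of *HBM* to *HBB* was lower in the high group by 0.24 (exact two-sided permutation test, p = 0.675, adjusted 0.675), and without replicate 13 the difference was 0.18 toward the high group.

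*HBQ1* differed little between cows in CPM, so its ratio to *HBB* is set mainly by the amount of *HBB*, the denominator. Its counts were 0.0160% of those of *HBB* in replicate 7 and 0.0524% to 0.0884% in high replicates 3 to 6, while low cows had 0.181% to 0.523%. Replicates 1 and 2 of the high group, the cows with little *HBB*, had 0.294% and 0.593%. The log2 ratio of *HBQ1* to *HBB* was lower in the high group by 1.77, with p = 0.0315 in the exact two-sided permutation test and 0.0944 after adjustment over the 6 ratios. For *HBQ1* to *HBG* the difference was -1.86 (exact permutation p = 0.0192, adjusted 0.0944) and for *HBQ1* to *HBM* -1.53 (exact permutation p = 0.107, adjusted 0.214). None of the 6 ratios passed the adjusted threshold with all cows. Without replicate 2 of the high group, the adjusted p was 0.0195 for *HBQ1* to *HBB* and for *HBQ1* to *HBG*, and without replicate 1 it was 0.0390 for *HBQ1* to each of the other 3 genes.

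**Figure D3:**
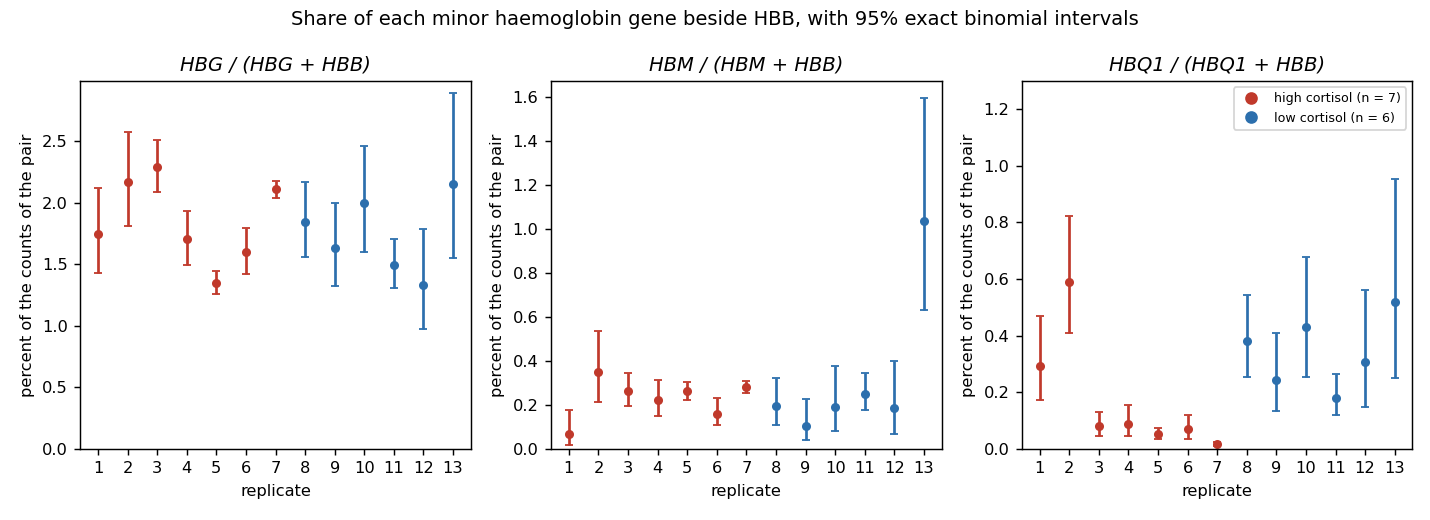
Counts of *HBG*, *HBM* and *HBQ1* as a percent of the sum of that gene and *HBB* in each cow, with 95% exact binomial intervals, the high group in red and the low group in blue. *HBG* lies between 1.33% and 2.29% in every cow, *HBM* is at most 0.348% except in replicate 13 at 1.03%, and *HBQ1* falls to 0.0160% in replicate 7.

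Across cows *HBB*, *HBG* and *HBM* rose and fell together, while a relation of *HBQ1* to them was not detected. The log2 CPM of *HBB* and *HBG* had a Pearson r of 0.99 and a Spearman rho of 0.95 over 13 cows (permutation test with 100000 resamples, p = 1e-05 for each, the smallest they can give, and 6e-05 adjusted over 6 pairs). The slope of *HBG* on *HBB* was 0.99 in log2 units, and the untested sharing of reads between these genes limits this relation too. For *HBB* and *HBM*, r was 0.88 (permutation p = 2e-04, adjusted 4e-04) and rho 0.81 (permutation p = 0.00144). For *HBG* and *HBM*, r was 0.90 (permutation p = 1e-04, adjusted 3e-04) and rho 0.82 (permutation p = 0.0011).

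Without replicates 5 and 7 of the high group, the cows farthest from the median of *HBB*, r was 0.97 for *HBB* and *HBG* (permutation p = 1e-05) and 0.67 for *HBB* and *HBM* (permutation p = 0.0252). Without replicates 3 and 7, farthest for *HBG*, r was 0.77 for *HBG* and *HBM* (permutation p = 0.00669). Within the high group alone, r was 0.99 for *HBB* and *HBG* (exact permutation test, p = 3.97e-04, n = 7) and 0.96 for *HBB* and *HBM* (exact permutation test, p = 7.94e-04, n = 7). Within the low group, r was 0.95 for *HBB* and *HBG* (exact permutation test, p = 0.00972, n = 6) and -0.22 for *HBB* and *HBM* (exact permutation test, p = 0.714, n = 6). The low group holds replicate 13, the cow with the outlying ratio of *HBM* to *HBB*, and *HBM* had 6 to 36 counts in that group. Without replicate 13, r over the other 12 cows was 0.96 for *HBB* and *HBM* and 0.96 for *HBG* and *HBM* (permutation p = 2e-05 and 1e-05). The difference in r between the groups was not tested.

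For *HBQ1*, r was 0.33 with *HBB*, 0.36 with *HBG* and 0.29 with *HBM*, with permutation p between 0.229 and 0.335 and adjusted p between 0.329 and 0.335. Without the 2 cows farthest from the median, r was 0.17, 0.28 and 0.10, with permutation p of 0.625, 0.394 and 0.774. With 1 cow left out in turn, r with *HBB* ran from 0.14 (without low replicate 13) to 0.57 (without high replicate 2, permutation p = 0.053, adjusted 0.0670), and r with *HBG* from 0.21 to 0.56 for the same cows. With *HBM* it ran from 0.20 to 0.42. Within the low group r was 0.72 with *HBB* and 0.78 with *HBG* (exact permutation tests, p = 0.154 and 0.0667, n = 6), and within the high group 0.10 and 0.16 (exact permutation tests, p = 0.827 and 0.733, n = 7). The slope on *HBB* in log2 units was 0.08 for *HBQ1* and 0.91 for *HBM*, so *HBQ1* did not rise in proportion to *HBB*. A weaker relation of *HBQ1* to the other haemoglobin genes was not detected, on 10 to 34 counts per cow, and is not excluded.

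**Figure D4:**
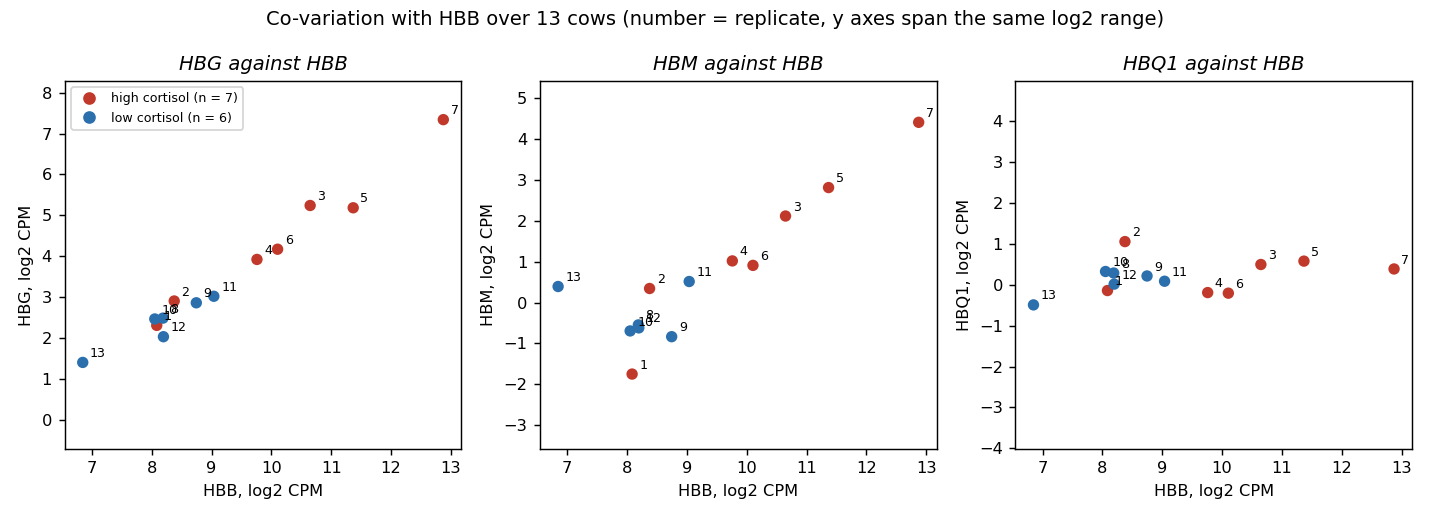
Log2 CPM of *HBG*, *HBM* and *HBQ1* against log2 CPM of *HBB* in 13 cows, with the high group in red, the low group in blue, replicate numbers beside the points and y axes of equal log2 span. *HBG* follows *HBB* along a line with a slope of 0.99, *HBM* lies farthest from such a line in replicate 13, and *HBQ1* spans a much smaller range.

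Of the 11032 other genes tested, *HBG* had the highest r with *HBB* and *HBB* the highest r with *HBG*, and *HBG* had the highest r with *HBM*. Among genes outside the haemoglobins, the 5 most like *HBB* in log2 CPM over 13 cows were *BCL2L2* (r = 0.88), a survival gene of the BCL2 family, then *ZNF34* (0.85), *VSIG10L* (0.82), *PRUNE1* (0.81) and *GRAMD4* (0.80). For *HBG*, *BCL2L2* again came first (r = 0.89), then *ZNF34* (0.83), *VSIG10L* (0.82), *TTC38* (0.81) and *PRUNE1* (0.80). For *HBM* the 5 were *GRAMD4* (0.89), *BCL2L2* (0.89), *FAM117A* (0.81), *RBM4B* (0.79) and *VSIG10L* (0.78). These values of r are the largest of many and are given as a description.

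The genes alike in pattern differed far less between cows than the haemoglobins did. *BCL2L2* averaged 5.21 ± 0.865 CPM over the 7 high cows and 4.33 ± 0.107 CPM (mean ± SD) over the 6 low cows, with a log2 fold change of 0.27 (unadjusted p 0.118, adjusted p 0.998, edgeR). For *HBQ1* the 5 most alike were a separate set, namely *ZSWIM3* (r = 0.88), *GATA2* (0.88), *WDYHV1* (0.87), *LTB* (0.83) and *SPRYD3* (0.83). *GATA2*, a transcription factor of blood progenitors, mast cells and basophils, averaged 16.4 ± 4.69 CPM over the 7 high cows and 12.3 ± 2.33 CPM (mean ± SD) over the 6 low cows.

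The genes that make haem, the group that haemoglobin carries, showed no shared direction between the groups. Of 13 haem synthesis genes, 12 were tested, 5 with higher and 7 with lower values in the high group, and 0 passed an adjusted p of 0.05 (edgeR). The median log2 fold change of the list was -0.05, beside 0.01 over all genes tested. *ALAS2*, the erythroid form of the rate-limiting enzyme, was the 1 gene of the list at an unadjusted p below 0.05, at 109 ± 92.3 CPM over the 7 high cows and 47.4 ± 15.8 CPM (mean ± SD) over the 6 low cows. On the log2 scale its fold change reached 1.21, with a standard error of 0.46 (edgeR, unadjusted p 0.0188, adjusted p 0.998). Replicate 7 had 301 CPM of *ALAS2* and no other cow more than 124 CPM, and without replicate 7 none of the genes in these lists had an unadjusted p below 0.05. *ALAS1*, the form used in all tissues, had a log2 fold change of -0.21 (unadjusted p 0.0680, edgeR).

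Of the 10 genes for the alpha chain chaperone and erythroid transcription factors, 9 were tested, 4 with higher and 5 with lower values in the high group. Their log2 fold changes ran from -0.34 to 0.46 (median -0.03), and none had an unadjusted p below 0.05. The smallest p was that of *NFE2*, with a log2 fold change of -0.34 (unadjusted p 0.0973, edgeR). *GATA1*, the master regulator of red cell genes, had a log2 fold change of 0.46 (unadjusted p 0.198, edgeR), and *KLF1*, an activator of the adult beta chain gene, 0.30 (unadjusted p 0.154, edgeR). *AHSP*, the chaperone that binds free alpha chains, was below the filter with 0 to 13 counts per cow.

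Of 13 regulators of the switch from fetal to adult chains, 8 were tested, 1 with higher and 7 with lower values in the high group. Their log2 fold changes ran from -0.17 to 0.20 (median -0.05), and none had an unadjusted p below 0.05. *CHD4* had the smallest p, with a log2 fold change of -0.17 (unadjusted p 0.145, edgeR). *MYB*, a transcription factor of early blood cells, had a log2 fold change of -0.10 (unadjusted p 0.614, edgeR). *ZBTB7A*, a repressor of fetal chains, had -0.05 (unadjusted p 0.643, edgeR). *LIN28B*, which is active in fetal blood cells, had 0 counts in all 13 cows, which allows up to 3 counts, or at most 0.272 CPM. *BCL11A* was not among the named genes.

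Marker lists of blood cell types were set beside the haemoglobin share. The summed CPM of 15 erythroid genes other than haemoglobins was 156 to 463 in the high group (median 264) and 166 to 217 in the low group (median 197), with *ALAS2* and *BLVRB* as large parts of it. *KEL*, a blood group gene of the red cell surface, had at most 2 counts in any cow, and *SLC4A1*, the anion exchanger of red cells, 1 to 48. Of the 9 erythroid genes tested, 8 were higher in the high group, and 2 of them, *ALAS2* and *CA2* (a carbonic anhydrase, log2 fold change 0.76, unadjusted p 0.0120, adjusted p 0.998, edgeR), were so at an unadjusted p below 0.05, as were 0.934% of all genes tested, while *SLC25A37*, an iron carrier of mitochondria, was lower with a log2 fold change of -0.45 (unadjusted p 0.00210, adjusted p 0.998, edgeR).

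The log2 haemoglobin share and the log2 sum of the erythroid markers had r = 0.70 (permutation test with 100000 resamples, p = 0.00962, adjusted over 6 lists 0.0289) and rho = 0.48 (permutation p = 0.101, adjusted 0.303). Without replicates 5 and 7 of the high group, r was 0.20 (permutation p = 0.561). Without replicate 7 alone it was 0.39 (permutation p = 0.205), and without replicate 5 alone 0.68 (permutation p = 0.0254), so the relation rests mainly on replicate 7. Within the groups, r was 0.60 in the high group (exact permutation test, p = 0.146, n = 7) and 0.41 in the low group (exact permutation test, p = 0.431, n = 6). In replicate 7, *ALAS2* alone had 301 CPM of the erythroid sum of 463 CPM, so the sum there mainly follows 1 gene. Single erythroid genes differed in their r of log2 CPM with *HBB* over the 13 cows. It was 0.74 for *CA2* and 0.73 for *ALAS2*, but 0.16 for *GATA1*, 0.03 for *BLVRB* and -0.49 for *SLC25A37*. The haemoglobin share itself ranged over 71.4-fold between the 13 cows. The part of red cell content in the haemoglobin difference was not tested.

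Of the 7 neutrophil genes tested, 3 had higher and 4 lower values in the high group. *CSF3R*, the receptor of a neutrophil growth factor, and *S100A9*, a calcium-binding protein, made up most of the summed level, with log2 fold changes of -0.45 and -0.44 (unadjusted p 0.0324 and 0.0166, adjusted p 0.998, edgeR), while *S100A8*, the partner of *S100A9*, had 0.45 (unadjusted p 0.338). The sum therefore mainly follows those abundant genes. The 8 named genes summed to 4126 to 8432 CPM in the high group (median 5652) and 6396 to 8879 CPM in the low group (median 7515), and replicate 7, the cow richest in haemoglobin, had the lowest sum of all 13. Their log2 sum had r = -0.72 with the log2 haemoglobin share (permutation p = 0.00597, adjusted 0.0289) and rho = -0.62 (permutation p = 0.0285, adjusted 0.171). Without replicates 5 and 7, r was -0.30 (permutation p = 0.362). Without replicate 7 alone it was -0.52 (permutation p = 0.0858), and without replicate 5 alone -0.67 (permutation p = 0.0185), so this relation too weakened most without replicate 7. Within the high group r was -0.69 (exact permutation test, p = 0.0853, n = 7) and within the low group 0.06 (exact permutation test, p = 0.924, n = 6). The part of neutrophil content in the haemoglobin difference was not tested.

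Monocyte markers summed to 566 to 1041 CPM in the high group and 770 to 941 CPM in the low group, with r = -0.61 (permutation p = 0.0318, adjusted 0.0636), rho = -0.36 (permutation p = 0.230) and r = 0.06 without replicates 5 and 7 (permutation p = 0.865). Within the high group r was -0.90 (exact permutation test, p = 0.00298, n = 7) and within the low group -0.24 (exact permutation test, p = 0.669, n = 6), and over all cows without replicate 7 it was -0.16 (permutation p = 0.621). T cell, B cell and platelet lists had r of 0.10, 0.35 and -0.31 and rho of 0.23, 0.03 and -0.38, with permutation p of r between 0.245 and 0.756 and adjusted p between 0.359 and 0.756. Without replicates 5 and 7 their r was -0.38, -0.37 and -0.24, with permutation p between 0.245 and 0.484.

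**Figure D5:**
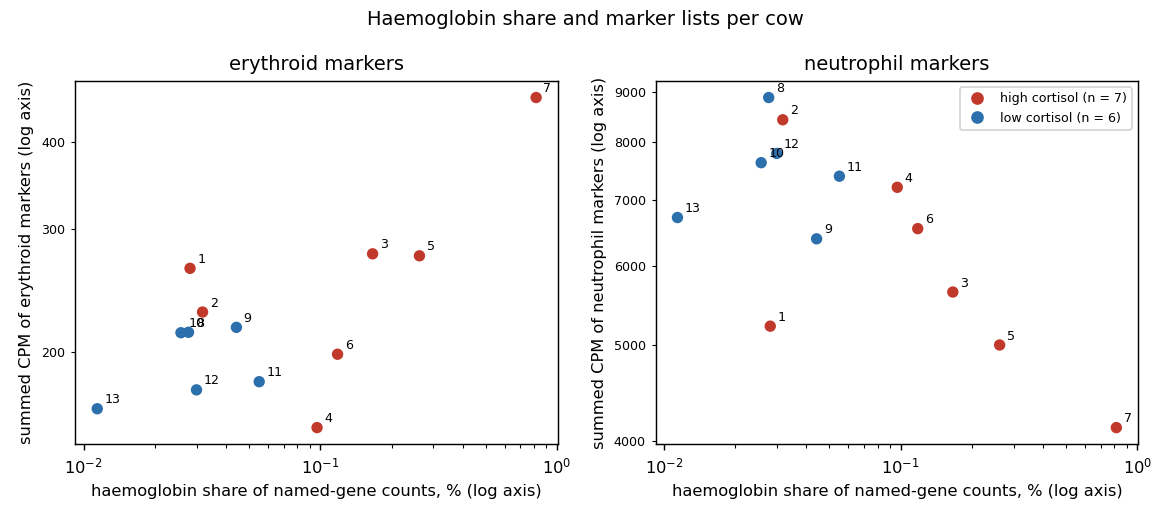
Summed CPM of the erythroid and neutrophil marker lists against the haemoglobin share of named-gene counts in each cow, on log axes, with the high group in red, the low group in blue and replicate numbers beside the points. Replicate 7, at a share of 0.815%, has the highest erythroid sum (463 CPM) and the lowest neutrophil sum (4126 CPM).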

How the data were processed

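Whole blood RNA of 13 cows was analysed, 1 library per cow, grouped by the sample titles. The authors deposited counts, whole numbers of reads per gene name without normalization. Each header names featureCounts 1.4.6-p3 and Ensembl 88 gene models for UMD3.1, and sets none of the options for strand, paired reads or multi-mapping. The labels name STAR 2.7.3, Subread 1.6.5 and ARS-UCD1.2. The headers also give animal numbers that differ from those of the tables, in a folder named for goat, and the groups were not checked against another record. The unnamed entry (13.9% to 16.7% of counts) was left out.

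From these counts, log2 CPM (TMM, prior count 2) was computed and the groups were compared with edgeR 4.0.16 in R 4.3.3 (quasi-likelihood, robust, filterByExpr with minimum count 10 and minimum total 15, Benjamini-Hochberg over all genes tested). The standard error was taken as the ratio of the log2 fold change to the root of the F statistic. These fold changes compare fitted means and exceed differences of mean log2 CPM where 1 cow is high. Ratios had 0.5 added to each count. Alternatives were DESeq2 1.42.0, limma-voom (limma 3.58.1), other factors, filters, pseudocounts and thresholds, and each cow left out. The fit was tested on simulated data.

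Depth was 11045599 to 28124575 named counts per cow, and 3 counts correspond to 0.107 to 0.272 CPM. Intervals and such limits cover counting error only. The genes named are the 4 haemoglobin genes, the 5 genes with the highest r with each, and, from each list, at most 4 genes with the smallest p. Other list genes (*MYB*, *ZBTB7A*, *AHSP*, *LIN28B*, *BCL11A*, *BLVRB*, *KEL*, *SLC4A1*) were named after their values were seen. The haemoglobin genes and the lists were chosen with earlier results of these data known. No sequences are printed, 1 gene of the erythroid list is not reported here, and methylation was not analysed here.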

Additional observations from a re-analysis of the deposited data

Results flagged for a closer look

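Dixon's test was run on both extremes of each group for 9 quantities of the haemoglobin genes, and 6 of 36 comparisons lay beyond the 95% limit. That limit is two-sided and each end was compared alone, so fewer than 1.8 would be expected by chance. The quantities are not independent of each other. Most of the 6 concern replicate 7 of the high group, which was far above the next cow of its group with 7511 CPM of *HBB* (next 2644), 162 CPM of *HBG* (next 37.6), 21.2 CPM of *HBM* (next 6.92), a haemoglobin share of 0.815% (next 0.262%) and a ratio of *HBM* to *HBQ1* counts of 17.7 (next 5.00). On a log2 scale none of these lay beyond the limit. The remaining value is that of replicate 13 of the low group, where counts of *HBM* were 1.05% of those of *HBB*. This value was within the limit on a log2 scale, where the 1 comparison beyond it was the low *HBQ1* level of the same cow (0.601 CPM).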

How the results depend on the processing

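No paired analysis was possible because the replicate numbers of the high and the low group are not shared. The log2 fold changes of the 4 genes, their number past an adjusted p of 0.05 (0) or 0.1 (0), the haemoglobin share and the 6 correlations between the genes kept direction and side of the threshold under all alternatives run. Correlations within 1 group are not among these alternatives. Within the low group, r was -0.22 for *HBB* and *HBM*, -0.21 for *HBG* and *HBM* and -0.66 for *HBM* and *HBQ1* (n = 6). Of the 4 genes, 3 had an unadjusted p below 0.05, and 2 with limma-voom. Of the haem and globin control lists, 1 gene had an unadjusted p below 0.05, 0 with limma-voom, and between 0 and 3 with 1 cow left out. That number was 0 when high replicate 7 was left out, 3 for high replicate 2 or 5, and 2 for high replicate 4 or low replicate 9 or 11. The difference in log2 ratio between the groups, with 1 cow left out, ran from -0.47 to 0.18 for *HBM* to *HBB* (0.00202 when high replicate 1 was left out, 0.18 when low replicate 13 was) and from -0.54 to 0.03 for *HBM* to *HBG* (0.0288 without replicate 13). It ran from -2.21 to -1.34 for *HBQ1* to *HBB*, from -2.25 to -1.39 for *HBQ1* to *HBG* and from -2.05 to -1.04 for *HBQ1* to *HBM*. Of the correlations with marker lists, erythroid was 0.48 and neutrophil -0.62 by rank, no longer past the threshold, and neutrophil was -0.64 without TMM factors (adjusted p 0.0555). With 1 cow left out, r ran from 0.39 to 0.80 for erythroid, -0.83 to -0.52 for neutrophil, -0.09 to 0.55 for T cell and -0.68 to -0.16 for monocyte markers. The erythroid and neutrophil calls were lost without high replicate 3 (r = 0.68 and -0.70), 5 (0.68 and -0.67) or 7 (0.39 and -0.52), with r close to that over all cows in the first 2 cases. Monocyte markers passed without high replicate 4 (r = -0.66), low replicate 12 (-0.67) or low replicate 13 (-0.68), and T cell markers had a negative r without replicate 5 (-0.03) or 7 (-0.0873) of the high group. The causes of these shifts were not tested. *HBM*, with 4 to 52 counts in 11 cows, and *HBQ1*, with 10 to 34, are limited by counting.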
